A study of Mus musculus with 19 samples.

Results

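The genes described here are 50 genes of the early secretory pathway and of the unfolded protein response, measured by mRNA-seq in the mouse vomeronasal organ (VNO), the organ of the nasal septum that detects pheromones. They were chosen by name for their roles in entry into the endoplasmic reticulum (ER), folding, the ER stress response and transport from the ER to the Golgi, and are 50 of 35596 genes counted in the series. The choice was made with earlier results of these data known. All 50 passed the filter on low counts. The study removed Smad4, the common partner of the receptor-activated Smad proteins in BMP and TGF-β signalling, from vomeronasal sensory neurons. In the first line the Cre recombinase was driven by AP2e (AP2eCre), which is active in immature basal neurons, and in the other by OMP (OMPCre), which is active in all mature neurons. Each line had 3 conditional knockouts (cKO; AP2eCre +/- or OMPCre +/- with floxed Smad4), 3 heterozygous Cre mice (AP2eCre +/- or OMPCre +/- with no Smad4 deletion given) and 3 controls that the labels call wild type and the study's methods call Smad4 flox/flox without Cre. These 18 libraries came from mice labelled female at postnatal day 21. The labels name the neurons that carry the deletion as the cell type, but the RNA was taken from whole organs, which also hold glands, supporting cells, vessels and cartilage. In such bulk RNA, fewer cells of a type and less RNA per cell cannot be told apart.

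Proteins that will be secreted or placed in membranes enter the ER through the Sec61 channel, lose their signal peptide, and are folded by chaperones and disulfide isomerases. COPII-coated vesicles then carry them to the Golgi. Unfolded protein in the ER is sensed by Ire1 (the product of Ern1), Atf6 and Perk, which raise chaperone genes through the factors Xbp1, Atf6 and Atf4. Cells that secrete a great deal of protein, such as those of glands, hold high levels of this machinery. The nasal and vomeronasal glands secrete lipocalins, small carriers of hydrophobic molecules, among them Obp2a, Lcn3 and Lcn4.

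Several of these genes carry a known ER stress element in the promoter, and the windows of the members that hold it are shown because their values are compared below. RefSeq promoter windows (GRCm38.p6, 250 bases before the start to 50 after it) were at hand for 41 of the 50 members. The ER stress element, bound by NF-Y and Atf6, was searched as CCAAT, 9 bases of any kind and CCACG on both strands. It was found in 6 members (Calr, Canx, Dnajc3, Hsp90b1, Hspa5 and Pdia6), which is 14.6% of the 41, against 0.137% of all genes with a promoter window. A second form, ATTGG, 1 base and CCACG, was found in Dnajb11 and Herpud1, 4.88% against 0.0444%. Each sequence runs 5′ to 3′ along the gene's strand, and the capitals mark the element.
Hspa5, chr2:34771995-34772073, plus strand: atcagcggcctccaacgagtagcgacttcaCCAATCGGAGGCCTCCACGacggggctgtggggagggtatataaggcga
Dnajc3, chr14:118937797-118937875, plus strand: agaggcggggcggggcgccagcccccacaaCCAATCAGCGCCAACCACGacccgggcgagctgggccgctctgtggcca
Pdia6, chr12:17266461-17266539, plus strand: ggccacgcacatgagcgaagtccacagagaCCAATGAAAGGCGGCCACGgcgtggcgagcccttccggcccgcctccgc
Hsp90b1, chr10:86705503-86705686, minus strand: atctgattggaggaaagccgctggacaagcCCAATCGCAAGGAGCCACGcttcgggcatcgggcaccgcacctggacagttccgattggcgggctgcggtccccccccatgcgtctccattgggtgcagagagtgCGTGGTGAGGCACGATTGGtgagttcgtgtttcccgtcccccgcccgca
Calr, chr8:84847045-84847123, minus strand: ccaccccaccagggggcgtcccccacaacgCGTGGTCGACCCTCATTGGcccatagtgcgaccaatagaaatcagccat
Canx, chr11:50325770-50325848, minus strand: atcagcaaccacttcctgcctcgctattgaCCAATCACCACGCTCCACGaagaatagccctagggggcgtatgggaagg
Herpud1, chr8:94386347-94386417, plus strand: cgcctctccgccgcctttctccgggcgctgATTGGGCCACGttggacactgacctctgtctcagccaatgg
Dnajb11, chr16:22857822-22857874, plus strand: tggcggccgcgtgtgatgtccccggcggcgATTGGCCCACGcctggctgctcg
In Calr and in the second copy of Hsp90b1 the element lies in the reverse orientation, so the capitals read as its complement, while in Hspa5, Dnajc3, Pdia6, Canx and the first copy of Hsp90b1 it lies forward. Counted along the gene's strand, the first capital stands 65 bases before the start in Hspa5 (position -65). It stands at -105 in Dnajc3, -98 in Pdia6, -145 in Canx and -212 in Hsp90b1 (first copy). In Calr, where the element is reversed, it stands at -162. The second form begins at -52 in Herpud1 and, after the start, at 8 in Dnajb11. A core of the unfolded protein response element, TGACGTGG on either strand, was found in Kdelr3, Sec23a and Sec24d, 7.32% of the 41 members against 0.714% of all genes. The cAMP response element TGACGTCA was found in 0 of the 41 members, against 2.03% of all genes. A match is a description of these letters and not of binding.

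The libraries held 43385516 to 134042284 estimated counts, with a median of 63096714.5. Levels are given as CPM, counts per 1000000 counts of a library after TMM scaling over the 18 libraries. Smad4 itself, the targeted gene, was counted over whole transcripts, so reads outside the deleted part enter its count. It read 66.1, 66.5 and 33.8 CPM in the AP2eCre cKO and 39.6 to 81.0 CPM in their controls. Of the cKO libraries 2 lay inside that range and 1 below it, so Smad4 did not check those labels. In the OMPCre cKO it read 61.9, 62.5 and 54.4 CPM, below all 6 controls (64.8 to 83.9 CPM), with a log2 fold change of -0.35 (SE 0.089, edgeR adjusted p = 0.909). The gland lipocalins took 5.33% to 14.3% of all counts of a library, and their level moved with the AP2eCre cKO. The gland level, the mean log2(CPM + 1) of Obp2a, Lcn3 and Lcn4, was 13.49 to 13.91 in the 3 AP2eCre cKO libraries and 14.33 to 15.29 in their 6 controls. In the OMPCre line it was 14.29 to 14.60 in the cKO and 13.74 to 15.02 in the controls.

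Among the members the chaperones had the highest levels per length. By the deposited TPM of the transcript with most counts of each gene, the medians over the 18 libraries were 332 for Hspa5 (BiP, the main ER Hsp70), 246 for Pdia3 and 239.996 for Calr, a disulfide isomerase and a lectin chaperone. Hsp90b1 (Grp94, the ER Hsp90) stood at 226 TPM and P4hb, another disulfide isomerase, at 197 TPM. The lowest were Sec24a, a cargo-binding subunit of the COPII coat, at 3.90 TPM, the SNARE Stx18 at 4.91, the sensor gene Ern1 at 6.35 and the cargo receptor Tmed5 at 7.46. The order places lower those genes whose counts are split between transcripts. The transcript used held 32.6% of the counts in Stx18 and 42.3% in Herpud1. Sums of TPM over the transcripts of a gene were not used for this order. In Hsp90b1, 82.5% of the summed TPM lay on a transcript of 268 bases with a retained intron that held 6.81% of the gene's counts, and 6 members had over 50% of their TPM on transcripts shorter than 500 bases. Levels between genes are compared here per length only, and the CPM below compare 1 gene between libraries.

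In the AP2eCre cKO, 40 of the 50 members had lower fitted levels than in the 6 controls, with a median log2 fold change of -0.15 against 0.003 over the 18495 genes tested. None of the 50 was called by edgeR's quasi-likelihood test, in which the lowest adjusted p of a member was 0.120. That test called 7 genes of all kinds, 0.0378%. At an unadjusted p under 0.05, 12 members were lower and 0 higher, against 6.04% of all genes lower and 4.18% higher. DESeq2 called 3 members, all lower: Serp1 (adjusted p = 2.09e-08), Tram1 (adjusted p = 0.00785) and Dnajc3 (adjusted p = 0.0106), while it called 1.54% of all genes. In 7 members all 3 cKO libraries lay below all 6 controls, and in 0 members above, where 2.85% of all tested genes lay wholly below and 2.21% wholly above. The OMPCre cKO, shown beside them, had 30 members lower and a median of -0.03.

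**Figure D1:**
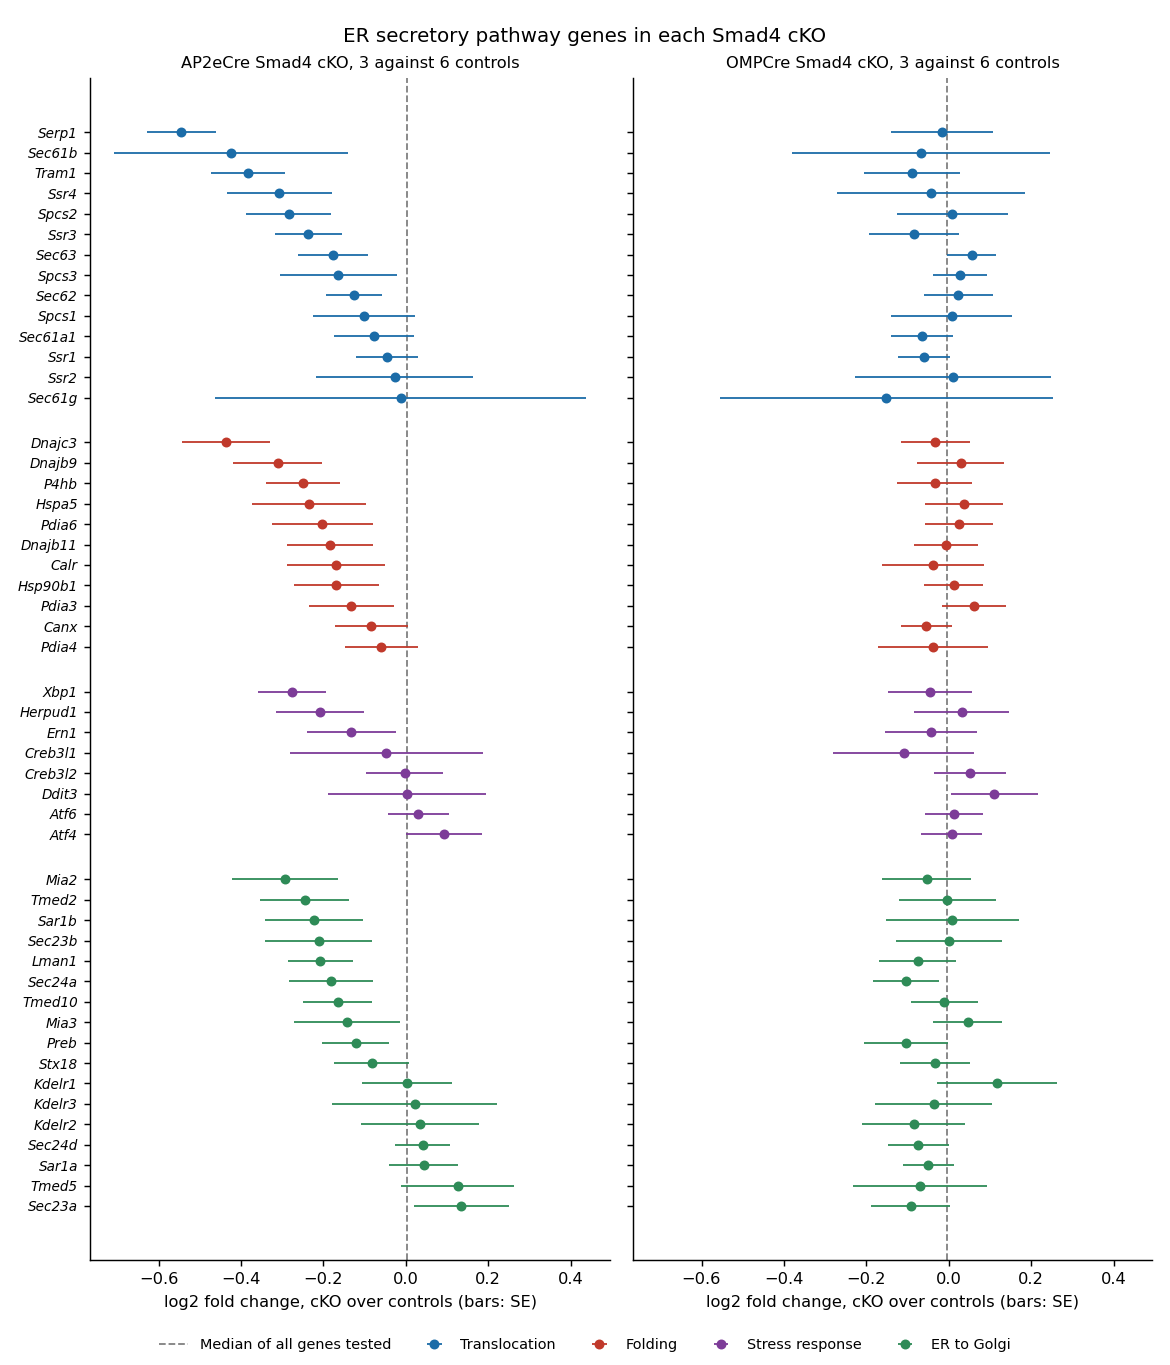
Log2 fold change, with its SE and a dashed line at the median of all genes tested, of each of the 50 members in the AP2eCre cKO (left) and the OMPCre cKO (right) against the 6 controls of the line, ordered by role. In the AP2eCre line all 14 translocation genes and all 11 folding genes lie left of 0, led by Serp1 at -0.54, while in the OMPCre line the members lie on both sides, between -0.15 and 0.12.

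The translocation genes were lower in 14 of 14 cases in the AP2eCre cKO, with a median of -0.17, with 5 at an unadjusted p under 0.05. Serp1 (chr3:58519817-58525892, minus strand, GRCm38) encodes RAMP4, a small protein bound to the Sec61 channel that stabilises new membrane proteins under stress. It read 356, 329.7 and 328 CPM in the cKO, 509, 451 and 503 in the flox controls and 538, 468 and 498 in the heterozygotes. The lowest control lay well above the highest cKO library. The means were 338 ± 15.7 (SD, n = 3) and 494 ± 31.0 (SD, n = 6) CPM, a log2 fold change of -0.54 (SE 0.084) that missed edgeR's threshold (adjusted p = 0.120) and passed that of DESeq2. With 1 library left out at a time, edgeR's adjusted p of Serp1 ranged from 0.0931 to 0.524. Tram1 (chr1:13564698-13589910, minus strand), which helps nascent chains into the membrane beside Sec61, read 188, 202 and 187 CPM in the cKO. Its levels were 277, 250.1 and 228 CPM in flox controls and 279, 248 and 227 CPM in AP2eCre heterozygotes, again with no overlap, and its log2 fold change was -0.38 (SE 0.089, edgeR adjusted p = 0.269). Ssr3, a subunit of the translocon-associated TRAP complex, was at 346, 312 and 335 CPM in the cKO. The controls of Ssr3 ran from 359 to 418 CPM, and its log2 fold change was -0.24 (SE 0.081, edgeR adjusted p = 0.367). Spcs2 and Spcs1, of the signal peptidase that cuts off signal peptides, overlapped with the controls. Spcs2 read 105, 113 and 129 CPM against 128 to 168 (log2 fold change -0.28, SE 0.10), and Spcs1 read 56.4, 77.7 and 72.3 CPM against 63.1 to 88.3 (log2 fold change -0.10, SE 0.12).

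The folding genes were lower in 11 of 11 cases, with a median of -0.18, with 3 at an unadjusted p under 0.05. Dnajc3 (chr14:118937976-118981697, plus strand) encodes p58IPK, a luminal co-chaperone of BiP. It read 245, 207 and 215 CPM in the cKO, 338, 259 and 332 in the flox controls and 299.7, 272 and 309.7 in the heterozygotes. All cKO libraries were below all controls, by a log2 fold change of -0.44 (SE 0.11, edgeR adjusted p = 0.269). P4hb, the disulfide isomerase PDI, read 700.1, 727 and 784 CPM in the cKO and 810.3 to 945 CPM in the controls (log2 fold change -0.25, SE 0.089, edgeR adjusted p = 0.383). Dnajb9, the co-chaperone ERdj4, read 74.2, 74.7 and 81.0 CPM against 84.4 to 113 (log2 fold change -0.31, SE 0.11, edgeR adjusted p = 0.368). In both genes the groups stood apart by small gaps. Hspa5, the most abundant member, read 794, 737 and 884 CPM in the cKO. Its controls spread over 1104, 894 and 1078 CPM in the flox mice and 747, 850.1 and 1028 CPM in the heterozygotes. The lowest cKO library lay just below that spread and the others inside it (log2 fold change -0.24, SE 0.14, edgeR adjusted p = 0.612). Hsp90b1 read 880.4, 802 and 988 CPM in the cKO and 912 to 1122 CPM in the controls, which overlap. Its log2 fold change was -0.17 (SE 0.10).

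The genes of the stress response did not share a direction, with 5 of 8 lower and a median of -0.02, with 1 at an unadjusted p under 0.05. That gene was Xbp1 (chr11:5520659-5525893, plus strand), the factor that Ire1 activates by cutting a short stretch out of its mRNA. Xbp1 read 175, 198 and 198 CPM in the cKO, 245, 244 and 226 in the flox controls and 242, 207 and 219.7 in the heterozygotes. The cKO lay below the controls by a log2 fold change of -0.28 (SE 0.083, edgeR adjusted p = 0.324). The activated form could not be separated, because the shortest intron annotated among the 4 Xbp1 transcripts is 300 bases and 1 transcript held 97.0% to 99.2% of the counts. Ern1 read 50.6, 47.6 and 46.0 CPM against 45.2 to 64.8. Atf4, the factor downstream of Perk, read 125, 137 and 129 CPM in the cKO and 105 to 134 CPM in the controls (log2 fold change 0.09, SE 0.092). Ddit3, the stress factor CHOP and a target of Atf4, read 15.0, 11.2 and 17.4 CPM against 9.65 to 18.2 (log2 fold change 0.00, SE 0.19). For neither gene was a change detectable. Creb3l1 and Creb3l2, factors anchored in the ER of secretory cells, had log2 fold changes of -0.05 (SE 0.23) and -0.00 (SE 0.094). Creb3l1 varied widely among the controls, from 78.2 to 177 CPM, and Herpud1, which serves ER-associated degradation, read 234, 211 and 243 CPM against 235 to 307.

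Of the genes of ER to Golgi transport, 10 of 17 were lower, with a median of -0.12, and 3 had an unadjusted p under 0.05. Mia2 and Mia3 encode cTAGE5 and TANGO1, which load bulky cargo at ER exit sites. Mia2 read 87.6, 107 and 99.1 CPM in the cKO and 102 to 152 CPM in the controls (log2 fold change -0.29, SE 0.13), while Mia3 read 325, 291 and 332 CPM against 284 to 447 (log2 fold change -0.14, SE 0.13). Tmed10, a p24 cargo receptor, read 260.3, 285 and 298 CPM in the cKO and 293 to 347 CPM in the controls (log2 fold change -0.17, SE 0.083). The cKO thus overlapped with the controls in each of these. Genes of the COPII coat went both ways. Sec23a had a log2 fold change of 0.13 (SE 0.11), Sec24a of -0.18 (SE 0.10) and Sec24d of 0.04 (SE 0.067), and Preb, which loads the coat's GTPase Sar1, of -0.12 (SE 0.082).

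**Figure D2:**
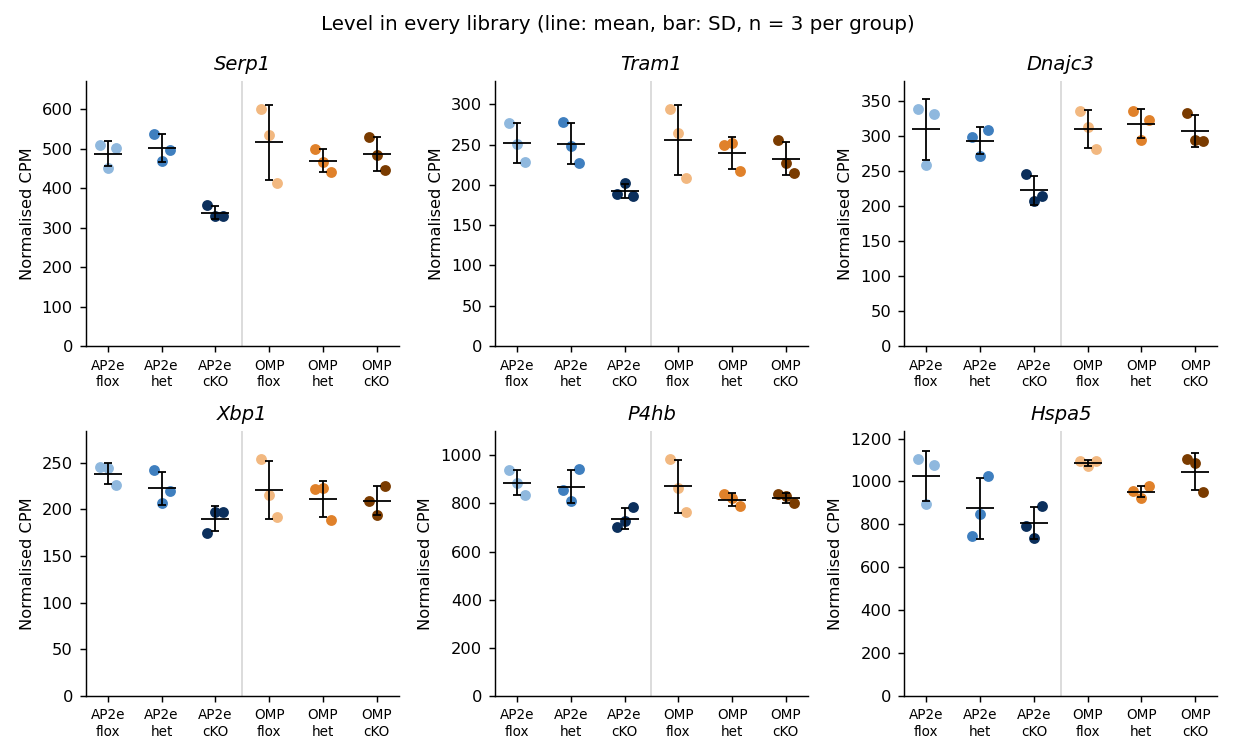
Level in CPM of named members in each of the 18 libraries, 1 point a library, with a line at the mean and a bar for the SD of each group of 3. Serp1, Tram1, Dnajc3, Xbp1 and P4hb separate the AP2eCre cKO from both kinds of control, while Hspa5 overlaps with them.

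The size of the shift depended on the control. Against the AP2e flox controls alone 45 of the 50 members were lower, with a median of -0.23, and against the AP2eCre heterozygotes alone 34 were lower, with a median of -0.08. The heterozygotes themselves lay below the flox controls in 40 of 50 members, with a median of -0.09, and in 8 of 8 genes of the stress response. Of these differences edgeR called 0 members and 0.0224% of all genes, and DESeq2 called 1 member and 0.833% of all genes. That member was Spcs3, a subunit of the signal peptidase, at 185, 192 and 185 CPM in the heterozygotes and 267, 232 and 266 CPM in the flox controls. All heterozygotes were lower, with a log2 fold change of -0.44 in edgeR and an adjusted p of 0.00928 in DESeq2. In the cKO, which carry the same Cre, Spcs3 read 183, 212 and 196 CPM. Serp1 differed from the flox controls and from the heterozygotes by much the same amount, -0.53 and -0.56.

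The gland genes were lower in the same libraries. Lcn4 had a log2 fold change of -1.22 (edgeR adjusted p = 0.249, DESeq2 adjusted p = 1.75e-06) and Lcn3 of -0.71 (edgeR adjusted p = 0.308, DESeq2 adjusted p = 0.00236), both with all 3 cKO libraries below all controls, and Obp2a one of -0.78 with overlap (edgeR adjusted p = 0.403). With the gland level as a covariate in the AP2eCre fit, 25 of the 50 members were lower and the median was 0.01. Serp1 and Dnajc3 held their values in that fit, -0.54 and -0.41, while Tram1 was at -0.14 and Xbp1 at -0.08. The members ran up to 1.68 there, the value of Sec61g, which was -0.01 in the main fit. With this covariate edgeR called 0 members (lowest adjusted p = 0.289). Of all 19055 genes it called 0 higher and 2 lower. Because no cKO library reached the gland level of any control of the line, the covariate and the genotype carry much of the same information in this fit.

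In the OMPCre cKO the members lay near all other genes. The median of the 50 was -0.03 against -0.005 over all 18623 genes tested, with 30 lower and 20 higher. No member was called by edgeR, which called 0% of all genes, or by DESeq2, which called 0.239% of them. At an unadjusted p under 0.05 there were 0 members, where 3.95% of all genes passed. In 0 members did the 3 cKO libraries lie wholly below or above the 6 controls, against 0.94% and 1.41% of all genes. The median turned to 0.02 without OMPCre cKO replicate 3, to 0.02 without OMP flox replicate 1 and to 0.02 against the heterozygotes alone, where 21 of 50 members were lower. Against the flox controls alone 41 of 50 were lower, 11 of 11 folding genes among them, with a median of -0.05. With the gland level as a covariate 39 of 50 were lower, with a median of -0.06. Against either kind of control alone, and with the gland covariate, edgeR called 0 members. Of all 18078 genes tested against the heterozygotes alone it called 4 higher and 7 lower. In the flox-alone and gland-covariate fits it called 0 of all genes. By role the medians were -0.03 for translocation, -0.01 for folding, 0.01 for the stress response and -0.05 for ER to Golgi transport.

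Serp1 read 531, 484 and 446 CPM in the OMPCre cKO, 599, 536 and 413 in the flox controls and 500.0, 466 and 442 in the heterozygotes. These groups overlapped over their whole range, with a log2 fold change of -0.02 (SE 0.12). Hspa5 read 1103, 1088 and 949 CPM in the cKO, 1096, 1071 and 1096 in the flox controls and 954, 925 and 979 in the heterozygotes (log2 fold change 0.04, SE 0.094). The members of lowest unadjusted p were Sec24a (log2 fold change -0.10, SE 0.081), Ddit3 (0.11, SE 0.11), Preb (-0.10, SE 0.10), Sec23a (-0.09, SE 0.096) and Sec24d (-0.07, SE 0.074). Each of these is within about 1 SE of 0 or little beyond it. The OMPCre heterozygotes lay below their flox controls in 34 of 50 members, with a median of -0.06, and edgeR called 0 members and 0.0441% of all genes.

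The difference between the lines was tested as an interaction, the cKO effect in the OMPCre line minus that in the AP2eCre line. It was above 0 in 39 of the 50 members, with a median of 0.14. Of the 50, edgeR called 0, as it did of all 19465 genes tested (0%), and the lowest adjusted p of a member was 0.982. At an unadjusted p under 0.05 there were 4 members, all with a higher effect in the OMPCre line, where 4.91% of all genes passed in either direction. They were Serp1 (0.53, SE 0.14), Dnajc3 (0.41, SE 0.13), Dnajb9 (0.34) and Sec63 (0.24), whose product works with Sec61 and BiP. With the gland level as a covariate the difference was above 0 in 20 members, with a median of -0.08.

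Across libraries the members moved with the gland genes. The member score, the mean log2(CPM + 1) of the 50, was compared with the gland level after the mean of each of the 6 groups had been taken out of both. Over the 18 libraries Pearson's r was 0.945 and Spearman's rho 0.917, given as a description, since all values of a library share its RNA and its scaling. The r was 0.899 without the 2 libraries farthest from the median of the gland level so centred, OMP flox replicates 3 and 1. Within the AP2eCre line it was 0.900 and within the OMPCre line 0.971. With TMM the score rose by 0.231 per unit of gland level, a slope that depends on the scaling, as given below.

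**Figure D3:**
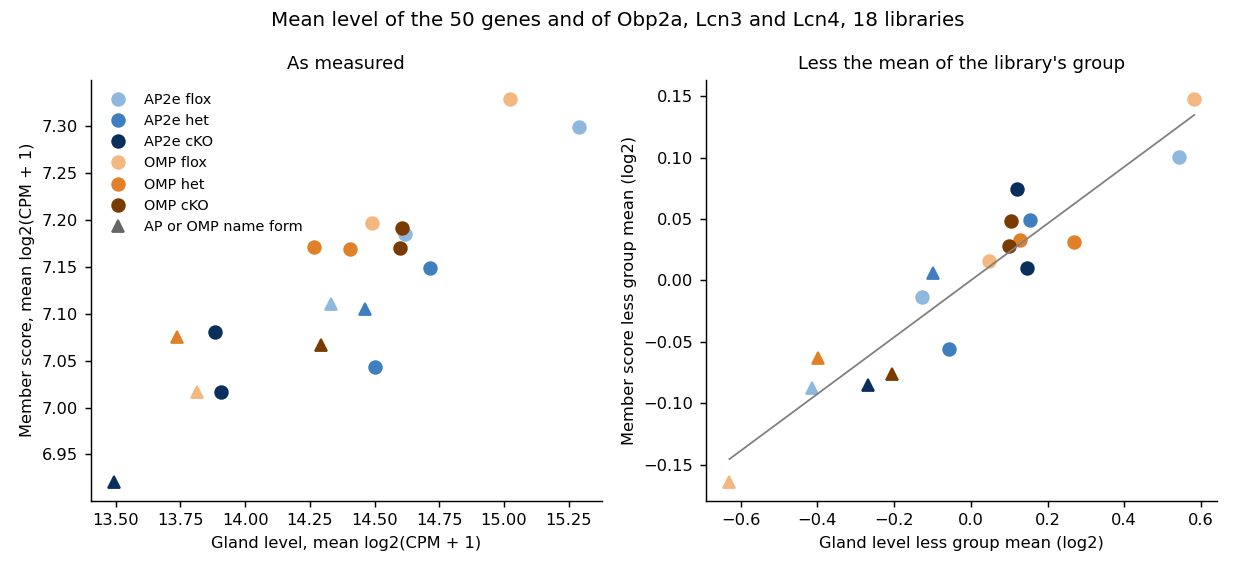
Member score against gland level, both in mean log2(CPM + 1), 1 point a library, as measured (left) and less the mean of its group (right, with the fitted line), coloured by group. The triangles are the 6 libraries whose names begin with AP or OMP. Within each group the library with more lipocalin RNA tends to have the higher score, with r = 0.945 after the group means are taken out.

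The names of the libraries have 2 forms, a letter with a number in 12 of them and a prefix of AP or OMP in 6, 1 in each group. The library with the prefix had the lowest gland level in 6 of 6 groups and the lowest score in 5 of 6. Within the 12 libraries of the first form r was 0.872. Within the 6 of the second, where each group has 1 library and only the means of the 2 lines could be taken out, it was 0.859, a value that also holds the differences between groups. With the form of the name as a covariate, the median of the members in the AP2eCre cKO was -0.15, as without it. Between the groups the score of the AP2eCre cKO was 7.01 ± 0.080 (SD, n = 3) against 7.15 ± 0.088 (SD, n = 6) in their controls, a difference of -0.14. The gland level differed there by -0.89, and the slope times that difference is -0.21. In the OMPCre line the score differed by -0.02 and the gland level by 0.21, for which the slope gives 0.05. The 13 further gland genes listed below did not share that direction in the OMPCre cKO, with 8 lower, 5 higher and a median log2 fold change of -0.21.

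The sign of this relation depends on the scaling of the libraries. With the deposited TPM the score's r was -0.443, with CPM of the library total without TMM it was -0.265, and with the 3 gland genes left out of that total it was 0.461. With DESeq2's size factors it was 0.945, and with the deposited TPM rescaled by the median ratio over tested genes it was 0.939. With the deposited TPM and with the library total the median of all genes fell as the gland level rose, so the score was also set relative to the median change of all tested genes in each library. Relative to all genes, r was 0.945 with TMM, 0.907 with the library total and 0.642 with the deposited TPM. The slope was 0.231, 0.185 and 0.104 in that order. This step is itself a rescaling of the libraries, so it is no independent check of the scaling. The score of the AP2eCre cKO, taken relative to all genes in the same way, was lower than in the controls by -0.14, -0.11 and -0.05.

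Gene by gene, the correlation with the gland level was positive in 42 of the 50 members, with a median r of 0.41 against -0.04 over all 19465 genes. These counts too depend on the scaling. With the deposited TPM 8 of 50 were positive, with a median r of -0.34 against -0.36 over all genes, and with the library total 18 of 50, with -0.39 against -0.42, so little of the gap to all genes was left. With the 3 gland genes out of that total 23 of 50 were positive, with -0.15 against -0.31, and with the rescaled TPM 38 of 50, with 0.55 against -0.03. By a permutation test with Benjamini-Hochberg adjustment over all these genes, 10 members were called positive and 0 negative, where 1.33% of all genes were called positive and 0.344% negative. Among the translocation genes the median r was 0.69, and 5 were called: Spcs2, Tram1, Ssr2, Sec61g and Sec61b. Of the ER to Golgi genes (median r 0.41) 3 were called, Mia2, Tmed10 and Tmed2. Calr was the 1 folding gene called (median r 0.32) and Creb3l1 the 1 of the stress response (median r 0.15). The highest values were those of Spcs2 (r = 0.94), Mia2 (r = 0.91), Tmed10 (r = 0.91), Tram1 (r = 0.88) and Creb3l1 (r = 0.87). The lowest were those of the membrane-bound lectin chaperone Canx (r = -0.61) and of Tmed5 (r = -0.60), neither of them called by this test. With the permutation kept within groups, Canx was called negative (adjusted p = 0.0303, permutation test). That test called 378 of all 19465 genes negative.

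The count of members called rests on single libraries, and the share of all genes called moved with it. It was 0 without AP2e flox replicate 3 and 0 without AP2eCre cKO replicate 3, where 0% of all genes were called in either case. It was 17 without AP2e flox replicate 1 (7.88% of all genes) and 15 without AP2e flox replicate 2 (4.02%), against 10 (1.67%) with all libraries. It was 5 to 9 without 1 of the AP2eCre heterozygotes and 6 without either of the other AP2eCre cKO libraries. In the OMPCre line it was 9, 4 and 2 without flox replicates 1, 2 and 3, 7, 6 and 3 without heterozygotes 1, 2 and 3, and 4, 3 and 9 without cKO replicates 1, 2 and 3. In these other cases 0.216% to 1.40% of all genes were called. The r of the score was steadier, from 0.913 to 0.958.

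**Figure D4:**
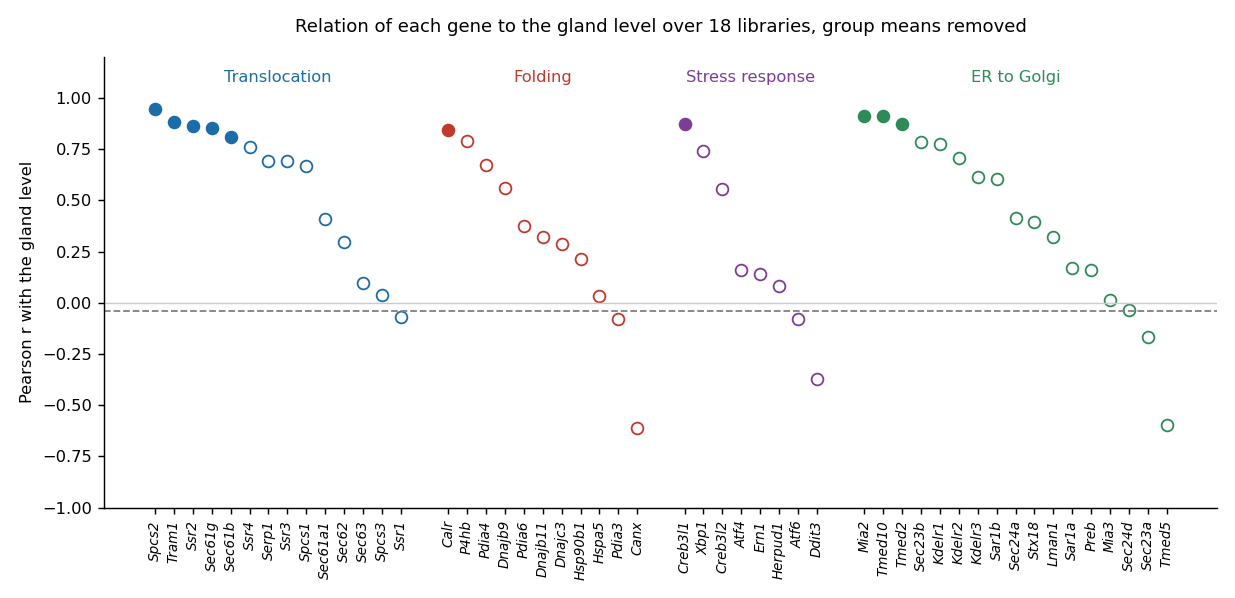
Pearson's r of each member with the gland level over 18 libraries, after the group means are taken out, by role, with filled points for the 10 members called and a dashed line at the median of all genes, -0.04. The translocation genes lie highest, with a median of 0.69, and the stress response lowest, with a median of 0.15, and Canx and Tmed5 are at the bottom.

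The holders of the ER stress element printed above spread widely in their relation to the glands. The 8 members with either form had r values from -0.61 to 0.84, with a median of 0.25, and the 33 members whose promoter lacks both had a median of 0.56. In the AP2eCre cKO 8 of the 8 holders were lower, with a median of -0.19, and 25 of the 33 others, with a median of -0.13. In the OMPCre cKO the median of the 8 was 0.003. The 9 members with no promoter window had a median r of 0.71.

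A wider list of 105 other ER genes gave similar counts. It was set down from knowledge of the pathway, but with earlier results of these data known, so it is no independent check. In the AP2eCre cKO 82 of the 105 were lower, with a median of -0.10, and edgeR called 0 of them. At an unadjusted p under 0.05, 15 were lower and 2 higher, against 6.04% and 4.18% of all genes. DESeq2, which called 1.54% of all genes, called Derl3, of ER-associated degradation (log2 fold change -0.73, adjusted p = 0.0101), Edem2, which trims mannose from misfolded glycoproteins (-0.36, adjusted p = 0.0119), and Sec16b, of the ER exit sites, which was higher (0.65, adjusted p = 0.0098). In the OMPCre cKO the median of the 105 was -0.002, and neither tool called any. The oxidase gene Ero1lb (0.43), the isomerase gene Pdia5 (0.32) and Vcp, the ATPase that extracts ER proteins for degradation (-0.33), had the lowest unadjusted p there. Calr4, a relative of Calr, had a log2 fold change of -0.25 in the AP2eCre cKO. With the gland level, 12 of the 105 were called positive, against 1.33% of all genes, and the median r of the 105 was 0.44.

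Some marker lists of other cells had sums wholly apart from the controls in the AP2eCre cKO, while others overlapped. The part of these cells in the members' values was not tested beyond the gland covariate. Of 13 measured further gland genes 12 were lower in the AP2eCre cKO, and their summed CPM was 51549 to 70455 in the cKO against 84250 to 142348 in the controls. All 4 markers of ciliated cells were lower (304 to 451 CPM in sum against 477 to 627). All 5 markers of immature neurons were higher, and so were 7 of 8 tested markers of plasma and B cells, another cell type rich in ER. Their sums overlapped with the controls, at 172 to 232 CPM against 144 to 186 for immature neurons and 66.6 to 95.4 CPM against 37.2 to 104.5 for plasma and B cells. Of the other lists, macrophage markers were higher in 3 of 5 cases, with sums wholly above the controls (184 to 185 CPM against 141 to 173). Markers of neutrophils were higher in 4 of 4 cases (159 to 356 CPM against 49.0 to 402), of bone and cartilage in 6 of 7 (29232 to 35573 against 14965 to 35066) and of blood in 4 of 5 (2653 to 3824 against 1532 to 3442). Those of sustentacular (supporting) cells were lower in 4 of 5 cases (1307 to 1819 CPM against 1666 to 3589). Vomeronasal neuron markers were higher in 4 of 7 cases, endothelial ones in 3 of 4 and skeletal muscle ones in 2 of 4. In every marker list edgeR called 0 genes in either cKO. In the OMPCre cKO all tested markers of plasma and B cells (8 of 8), blood (5 of 5), neutrophils (4 of 4), endothelium (4 of 4) and skeletal muscle (5 of 5) were lower, with sums that overlapped with the controls in each list. The r of a list's level with the member score was 0.75 for the further gland genes, 0.73 for sustentacular cells, 0.84 for endothelium and 0.66 for ciliated cells. It was 0.61 for bone and cartilage, 0.51 for immature neurons, 0.50 for macrophages, 0.48 for blood and 0.08 for neutrophils. It was -0.57 for skeletal muscle, -0.32 for vomeronasal neurons and -0.15 for plasma and B cells. These lists moved with the gland level much as with the score, with an r of 0.76 for endothelium, 0.68 for sustentacular cells, 0.68 for blood, 0.63 for ciliated cells and 0.54 for bone and cartilage, so their relations to the score cannot be told apart from that of the glands.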

How the data were processed

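Whole VNO RNA was made into directional polyA+ libraries and read as single ends of 75 bases. The authors quantified the reads with Salmon 0.14.0 (builds mm10 and GRCm38 in the submitters' notes) and deposited, for each of 116248 transcripts, an estimated count, not normalized, and a TPM value scaled to the same sum in every library. GENCODE vM21 (GRCm38) gave a gene for 116072 transcripts. The rest (176, no more than 0.0324% of any library) were dropped, and the counts of a gene's transcripts were added and rounded. 1 further library, whose title and genotype label disagree, entered no comparison and was used only in an alternative.

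The main test was edgeR 4.0.16 (R 4.3.3), quasi-likelihood, two-sided, with TMM, filterByExpr and Benjamini-Hochberg adjustment at 0.05, and cKO against both controls of the line. DESeq2 1.42.0 was an alternative. The gland relation used 100000 permutations of the gland level over libraries (10000 in alternatives). Fits and correlation were tested on simulated data. Python 3.11.15, numpy 2.4.6, pandas 2.3.3, scipy 1.17.1 and matplotlib 3.10.9 were used. The p-values measure spread between libraries labelled biological replicates. Intervals of counting error are small at these depths.

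The members and lists were chosen with earlier results of these data known. Genes were named where called in a main comparison, of the 5 lowest unadjusted p in each, with cKO libraries wholly on 1 side of the controls, of the 2 highest mean TPM by role, or of the 5 highest and 2 lowest gland correlations, beside Serp1, Hspa5, Xbp1, Atf4, Ddit3, Creb3l1, Creb3l2, the 3 gland genes, Calr4 and, of the other ER genes, those called or with the 3 lowest p. Spcs3, Ern1, Sec63, Pdia3, Pdia6, Dnajb11, Kdelr3 and Stx18 were named beside the rule after their values were seen. The exact permutation within groups, the further scalings of the gland relation and the score relative to all genes were chosen after seeing the data. Gene symbols follow GENCODE; 44 symbols belong to more than 1 identifier, and the second one of Ddit3 held 0 to 83 counts.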

Additional observations from a re-analysis of the deposited data

Results flagged for a closer look

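A sample far from the other 5 controls of its line was found in 3 of 52 tests by Dixon's critical value of 0.625, about what chance gives, since it marks about 1 group in 20. Spcs2 read 168 CPM in AP2e flox replicate 1 and 128 to 141 CPM in the other controls. Ssr4, a subunit of the TRAP complex, read 61.1 CPM in AP2e heterozygote replicate 2 and 74.2 to 79.7 CPM in the others. Creb3l2 read 116 CPM in OMP flox replicate 3 and 138 to 148 CPM in the others.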

How the results depend on the processing

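The median of the members in the AP2eCre cKO moved to 0.011 with the gland level as a covariate and to -0.080 against the heterozygotes alone, and lay between -0.178 and -0.121 with 1 library left out. For the OMPCre cKO that range was -0.066 to 0.023. DESeq2 called 3 members in the AP2eCre cKO and 1 between AP2eCre heterozygotes and flox controls, where edgeR called 0. Of 252 settings of single named members in the AP2eCre cKO, 229 kept direction and side of the threshold, and in the OMPCre cKO 100 of 100. Those that turned belonged to genes whose fold changes were near 0 in the main fit, though some turned values were large. Creb3l1 read 0.94 (gland covariate), 0.23 (heterozygotes alone) and -0.166 to 0.134 (1 library left out). Creb3l2 read 0.35, 0.062, 0.050 (length-scaled TPM) and -0.033 to 0.053. Ddit3 read -0.0045 (DESeq2), -0.0046 (its size factors), -0.15 (flox controls alone), -0.23 (gland covariate) and -0.14 to 0.16. With the gland level, the number of members called was 0 with the deposited TPM, 0 in either line, 0 in either form of name, 1 without the 2 farthest libraries (0.205% of all genes), 14 with Obp2a alone (6.41%), 6 with Lcn3 alone (0.832%), 0 with Lcn4 alone, 12 not centred (1.83%), 14 centred on lines (1.84%), 9 with the library total less the gland genes (3 of them negative, 14.1%), 16 with the library total (10 of them negative, with 27.5% of all genes called), 5 with rescaled TPM (0.817%) and 0 to 17 with 1 library left out, against 10 (1.67%). Where 0 members were called, 0% of all genes were. Fewer libraries entered the sets of 9, 12 and 6. The score's r was -0.443 with TPM, -0.265 with the library total, 0.461 with the total less the gland genes and 0.913 to 0.958 with 1 library left out. The cause of the other moves was not tested. Exact permutation within groups called 11 positive and 1 negative, with 6.14% of all genes. The numbers of libraries were not taken as pairs, which would need every same-number correlation of deviations over 0.1. These ran from -0.34 to 0.21 in the AP2eCre line (median -0.13, different numbers 0.075) and from 0.04 to 0.57 in the OMPCre line (median 0.26, different numbers -0.19). A library matched its own number best in 1 of 9 and 7 of 9, for the OMPCre line a hint of shared deviation from the data and not from the labels. Every same-number pair of the OMPCre line also shares the form of its name, which was not separated from the number. The replicate block called 0 members in every comparison, a count given without the share of all genes called in those fits. Creb3l2 then read 0.0037. The lowest count of a member in any library was 147, of Sec61g.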
